A study of Mus musculus with 8 samples.

Results

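Transcripts of the immunity-related GTPases (IRGs) were followed in MC38 cells, a mouse colon adenocarcinoma line, as 7 genes chosen by symbol: Irgm1, Irgm2, Igtp, Ifi47, Tgtp1, Tgtp2 and Iigp1. They are 7 of the 29079 genes in the deposited count table, each was found as 1 row by its symbol, and the rule that lists them uses no measured value. The 8 libraries form 4 groups of 2. The Piezo2 KO line, made with a guide RNA called Piezo2-gRNA1, and the WT line, which carries a CRISPR control and is called CRISPR-Ctrl, were each given 30 Gy of X-rays in 1 fraction or left non-irradiated (non-IR), and RNA was taken 60 hours after irradiation, per the labels' protocols. Piezo2 encodes a mechanically gated cation channel, and per the series title the study is about how Piezo2 of tumour cells bears on resistance to radiation and on the stemness of CD8+ T cells. WT therefore names a CRISPR control line rather than untouched cells. The KO is 1 line from 1 guide, and the sources used here do not say whether either line is a single clone. Nothing in the labels says that the 2 libraries of a group came from separate cultures, so the p-values measure the spread between these libraries, which may be technical. In bulk RNA a higher level can come from more cells that express a gene or from more RNA per cell, and these cannot be told apart.

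IRG proteins are interferon-inducible GTPases of mice that act inside cells, best known for coating and breaking the vacuoles in which Toxoplasma gondii and some bacteria live. The family has regulators and effectors. The GMS regulators Irgm1, Irgm2 and Igtp (also called Irgm3) sit on Golgi, lipid droplet, lysosomal and other host membranes and hold the effectors in their inactive form, and mice that lack Irgm1 lose resistance to several pathogens. The GKS effectors Iigp1 (Irga6), Ifi47 (Irgd) and Tgtp1 and Tgtp2 (both known as Irgb6) load onto the vacuole, with help from the autophagy conjugation machinery, and are joined there by the guanylate-binding proteins (GBPs). Their genes are textbook targets of interferon gamma and of type I interferon, through DNA letters known as gamma-activated sites (GAS) and as interferon-stimulated response elements (ISRE), the ISRE being bound by IRF proteins and by the complex that holds STAT2 and IRF9.

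The promoters of the members are shown because 4 of the 6 at hand hold these letters in a shared arrangement. The RefSeq promoter table (build GRCm38.p6) had an entry for 6 of the 7 members, each running from 250 bases before the transcript start to 50 after it, printed 5′ to 3′ on the gene's own strand. Capitals mark matches to GAS, searched as TTCNNNGAA, and to the core of the ISRE, searched as GAAANNGAAA, on both strands.
Irgm1 promoter, chr11:48871371-48871670, minus strand: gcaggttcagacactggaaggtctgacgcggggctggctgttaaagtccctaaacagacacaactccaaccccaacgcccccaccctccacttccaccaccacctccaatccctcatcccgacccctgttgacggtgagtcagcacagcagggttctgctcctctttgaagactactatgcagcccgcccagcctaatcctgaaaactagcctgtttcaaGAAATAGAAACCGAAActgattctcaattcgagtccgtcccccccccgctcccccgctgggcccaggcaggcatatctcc
Irgm2 promoter, chr11:58214727-58215026, plus strand: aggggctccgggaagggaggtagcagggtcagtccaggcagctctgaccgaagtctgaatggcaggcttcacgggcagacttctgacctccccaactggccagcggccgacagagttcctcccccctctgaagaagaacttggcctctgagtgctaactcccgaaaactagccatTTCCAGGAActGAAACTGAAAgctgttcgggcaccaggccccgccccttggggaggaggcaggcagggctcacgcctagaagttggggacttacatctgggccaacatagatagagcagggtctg
Igtp promoter, chr11:58199306-58199605, plus strand: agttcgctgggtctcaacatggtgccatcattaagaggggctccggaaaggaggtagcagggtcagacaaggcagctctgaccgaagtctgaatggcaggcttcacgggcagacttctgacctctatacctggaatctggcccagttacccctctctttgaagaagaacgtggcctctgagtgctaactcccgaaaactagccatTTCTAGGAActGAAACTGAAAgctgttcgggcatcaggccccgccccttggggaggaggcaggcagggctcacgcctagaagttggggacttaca
Ifi47 promoter, chr11:49076337-49076636, plus strand: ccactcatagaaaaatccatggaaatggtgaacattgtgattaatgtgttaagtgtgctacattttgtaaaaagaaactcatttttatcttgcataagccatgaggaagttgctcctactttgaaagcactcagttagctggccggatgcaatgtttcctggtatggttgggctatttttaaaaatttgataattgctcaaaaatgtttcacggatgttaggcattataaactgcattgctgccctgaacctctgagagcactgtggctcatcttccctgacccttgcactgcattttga
Tgtp1 promoter, chr11:48992197-48992496, minus strand: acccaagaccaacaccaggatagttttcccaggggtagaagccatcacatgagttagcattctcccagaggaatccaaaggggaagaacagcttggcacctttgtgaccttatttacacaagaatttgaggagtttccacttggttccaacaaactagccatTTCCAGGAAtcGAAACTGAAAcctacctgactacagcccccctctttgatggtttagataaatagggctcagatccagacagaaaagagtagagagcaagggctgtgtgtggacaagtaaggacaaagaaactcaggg
Tgtp2 promoter, chr11:49064163-49064462, minus strand: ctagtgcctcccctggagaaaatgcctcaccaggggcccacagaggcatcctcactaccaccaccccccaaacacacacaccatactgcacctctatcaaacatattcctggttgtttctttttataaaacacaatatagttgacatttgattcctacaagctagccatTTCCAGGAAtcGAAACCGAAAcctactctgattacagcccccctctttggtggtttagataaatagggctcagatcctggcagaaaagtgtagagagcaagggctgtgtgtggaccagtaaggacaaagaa

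Irgm2, Igtp, Tgtp1 and Tgtp2 each held 1 GAS match followed, after 2 bases, by 1 ISRE core match on the same strand. The joined stretch began 75 bases before the start in Irgm2, 45 in Igtp, 88 in Tgtp1 and 81 in Tgtp2. Irgm1 held 2 ISRE core matches that overlap each other, 30 to 21 and 24 to 15 bases before its start, and no GAS match. The Ifi47 window held neither set of letters, which says only that they are not in these 300 bases of that annotated start. Over all 32851 promoters in the table, 8.3% held a GAS match, 3.44% an ISRE core match, 11.3% either and 0.454% (149 promoters) both. The joined pattern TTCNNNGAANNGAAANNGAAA, which was written down after these sequences had been read and was searched on both strands, was found in 5 promoters, or 0.0152%. These were the 4 members named above and Gm12185, another IRG gene, which overlaps Tgtp1. In all 5 the same 8 bases ctagccat came just before the joined pattern. The 5 stretches are set side by side here, with the motifs in capitals.
Igtp: ctagccatTTCTAGGAActGAAACTGAAA
Irgm2: ctagccatTTCCAGGAActGAAACTGAAA
Tgtp1: ctagccatTTCCAGGAAtcGAAACTGAAA
Tgtp2: ctagccatTTCCAGGAAtcGAAACCGAAA
Gm12185: ctagccatTTCCAGGAAtaGAAAGTGAAA

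The likeness reached beyond the motif. The promoters of Igtp and Irgm2 had the same base at 73.5% of aligned positions and those of Tgtp1 and Tgtp2 at 67.7%, while the other 13 pairs of members lay between 46.4% and 53.9%. A match of letters is a description of the sequence and does not show that a factor bound there.

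**Figure D1:**
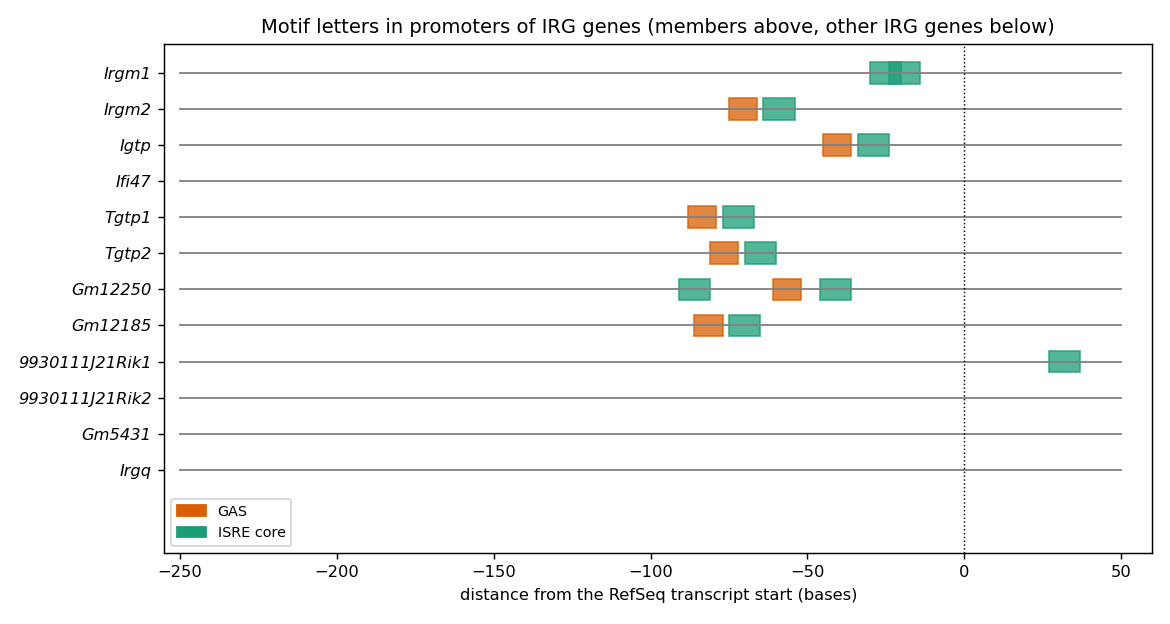
Motif letters in the RefSeq promoters of 6 members (upper rows) and 6 other IRG genes (lower rows), by distance in bases from the transcript start. Orange boxes are GAS matches and green boxes are ISRE core matches. The paired boxes of Irgm2, Igtp, Tgtp1, Tgtp2 and Gm12185 have the same spacing at different distances from the start.

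The libraries held between 10971004 and 19887180 counts, of which 99.86% to 99.93% fell in the 14923 genes that were tested. Levels are given as counts per M of the library's total counts (CPM). Piezo2 itself, the edited gene, had 7 and 12 reads in irradiated KO, 3 and 9 in irradiated WT, 0 and 1 in non-IR KO and 0 and 0 in non-IR WT, too few to check the labels. The labels call MC38 an epithelial line. Of 8 epithelial markers 5 were in the deposited counts, without Epcam, Krt20 and Cdx2. Cdh1 had 526 to 1365 reads per library, while Krt18 had at most 2, Vil1 at most 9, Krt8 at most 20 and Krt19 at most 28. Krt19 had 1 and 2 reads in non-IR KO and 24 and 14 in non-IR WT. Between these groups Krt19 was called lower in KO, by 3.51 ± 0.73 on the log2 scale (edgeR adjusted p = 0.0146), and Cdh1 higher, by 0.32 ± 0.08 (edgeR adjusted p = 0.0234). Markers of T and NK cells, which make interferon gamma, summed to between 0 and 0.519 CPM per library over the 5 analysed. Markers of macrophages, in which IRG genes are inducible, summed to 55.7 to 64.6 CPM in irradiated KO, 38.1 to 40.2 in irradiated WT, 7.20 to 7.95 in non-IR KO and 3.68 to 3.81 in non-IR WT over 10 genes. Nearly all of that sum was Cd68, a lysosomal protein that is not specific to macrophages. Adgre1, Itgam, Tyrobp, C1qa, C1qb and Fcgr1 had at most 3 reads in any library. The macrophage growth factor receptor gene Csf1r had 6 and 10 reads in irradiated KO, 1 and 0 in irradiated WT, 1 and 2 in non-IR KO and 1 and 1 in non-IR WT. The lysozyme gene Lyz2 had 13 and 13 reads in irradiated KO and 4 and 14 in irradiated WT, the pan-leukocyte gene Ptprc had 6 and 7 in irradiated KO and 20 and 20 in irradiated WT, and both had at most 2 in any non-irradiated library. Cd68, Lyz2 and Ptprc, the 3 macrophage markers tested, were called higher with irradiation in both lines. Of all tested genes 21.1% were called higher with irradiation in KO and 20.4% in WT. Lyz2 and Ptprc entered the test only through irradiated libraries, so their calls are no independent support. Between the irradiated lines Cd68 was called higher in KO, by 0.67 ± 0.11 (edgeR adjusted p = 0.00381). Fibroblast markers, led by Col1a2, summed to 1592 to 1762 CPM in irradiated KO, 1084 to 1187 in irradiated WT, 1077 to 1111 in non-IR KO and 821.7 to 900.3 in non-IR WT over 6 genes, with Lum at 0 or 1 read. The part of the epithelial, fibroblast and macrophage marker differences in the results that follow was not tested.

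After 30 Gy each of the 7 IRG transcripts was more abundant in the KO line than in the WT line, and in both lines more abundant than in non-irradiated cells. Over the 7 members together the level averaged 2236 ± 17.0 CPM in irradiated KO, 254 ± 50.2 in irradiated WT, 42.95 ± 0.41 in non-IR KO and 31.47 ± 2.06 in non-IR WT (SD, n = 2 each). That is 1 read in every 447 in irradiated KO and 1 in 3937 in irradiated WT, against 1 in 23283 in non-IR KO and 1 in 31776 in non-IR WT. The order of the groups was the same for each member down to the non-irradiated pair: both irradiated KO libraries lay above both irradiated WT libraries, and these above all 4 non-irradiated libraries. How many of all tested genes share this order was not counted, so it is given here and below as a description only.

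**Figure D2:**
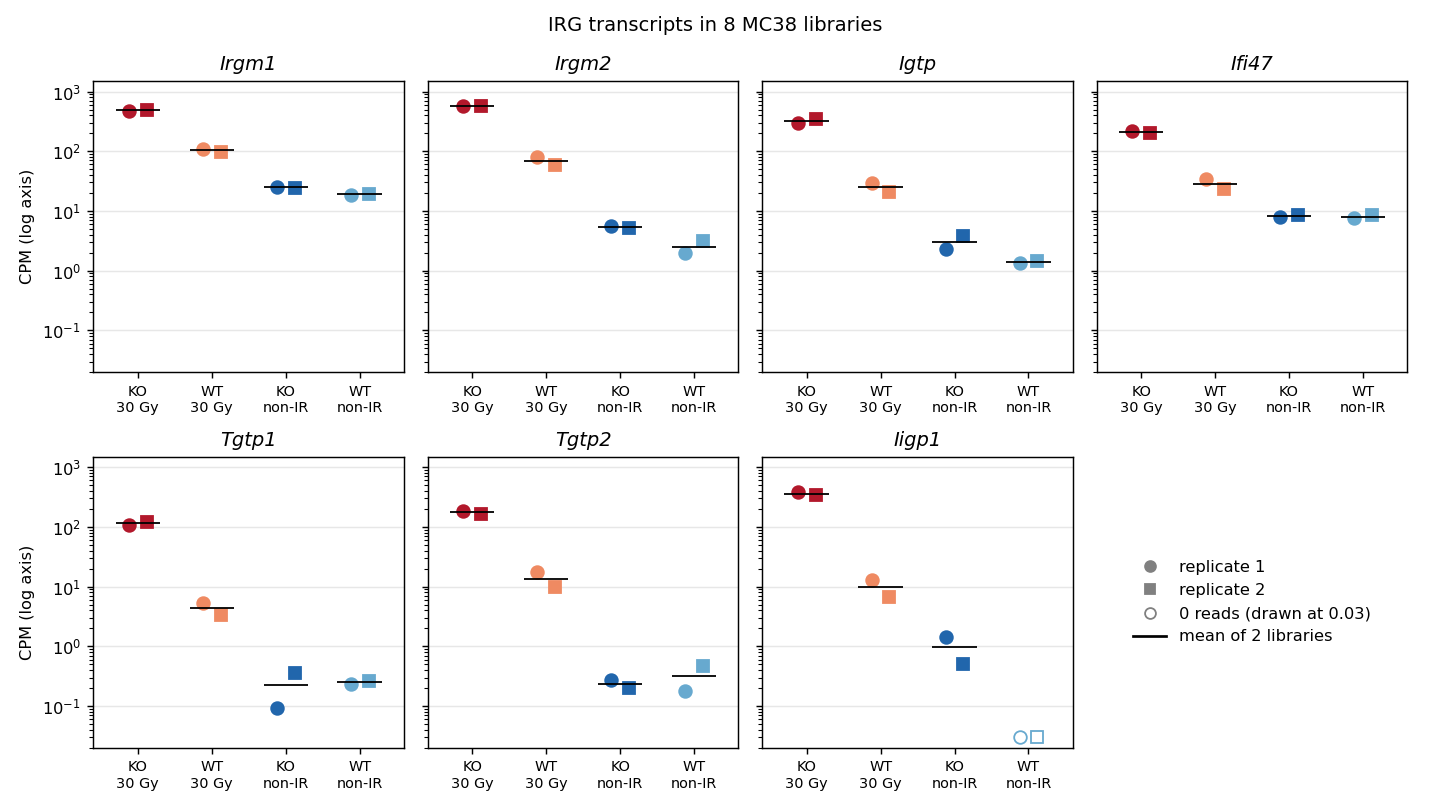
CPM of each member in each library on a log axis, with replicate 1 as circles, replicate 2 as squares and a line at the mean of the 2 libraries of a group. In every panel the irradiated KO points stand highest and the irradiated WT points next. Iigp1 had 0 reads in both non-IR WT libraries, drawn as open symbols at 0.03.

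Among the regulators, Irgm1, the member with the most reads without irradiation, stood at 479.6 and 489.1 CPM in irradiated KO, 110.9 and 97.06 in irradiated WT, 24.97 and 24.59 in non-IR KO and 18.74 and 19.12 in non-IR WT. Its 4 groups did not overlap, and the replicates lay close together at every level. Irgm2, a regulator found on Golgi membranes, stood at 574.0 and 567.6 CPM in irradiated KO, 79.24 and 57.97 in irradiated WT, 5.56 and 5.23 in non-IR KO and 1.96 and 3.09 in non-IR WT. Igtp, which resides on endoplasmic reticulum and lipid droplets, stood at 301.1 and 342.9 CPM in irradiated KO, 29.88 and 20.45 in irradiated WT, 2.28 and 3.82 in non-IR KO and 1.36 and 1.45 in non-IR WT. For these 2 regulators as well the 4 groups kept apart, with both non-IR KO libraries above both non-IR WT libraries.

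Among the effectors, Ifi47 was the one well expressed without irradiation, at 214.2 and 202.3 CPM in irradiated KO, 33.86 and 23.06 in irradiated WT, 8.02 and 8.55 in non-IR KO and 7.53 and 8.54 in non-IR WT. Its non-irradiated groups overlapped. Iigp1, the effector studied most for vacuole coating, had 384.8 and 337.4 CPM in irradiated KO, 13.13 and 6.80 in irradiated WT, 1.46 and 0.503 in non-IR KO and 0 and 0 in non-IR WT. The 0 of non-IR WT allows up to 0.0935 CPM, taken as 3 reads over the 2 libraries together, and the 26 reads of non-IR KO lie above that limit. Tgtp1 had 107.9 and 121.0 CPM in irradiated KO and 5.24 and 3.37 in irradiated WT, against 1 and 7 reads in the non-IR KO libraries and 4 and 4 in the non-IR WT libraries. Tgtp2 had 186.4 and 163.3 CPM in irradiated KO and 17.26 and 9.82 in irradiated WT, against 3 and 4 reads in the non-IR KO libraries and 3 and 7 in the non-IR WT libraries. For both Tgtp genes the non-irradiated groups overlapped at a handful of reads. In irradiated WT replicate 1 was above replicate 2 for all 7 members, by 1.14 to 1.93 times, while in irradiated KO the ratio of replicate 1 to replicate 2 ran from 0.878 to 1.14.

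Between the irradiated lines, all 7 members rose in KO relative to WT by the edgeR quasi-likelihood test at an adjusted p under 0.05, where 13.3% of all tested genes were called higher and 11.4% lower. Their median log2 change was 3.70, against -0.013 over all tested genes. The smallest rise was that of Irgm1, 2.23 ± 0.08 on the log2 scale (SE, adjusted p = 7.56e-06), which is 4.70-fold by pooled reads (95% exact interval 4.52 to 4.88, counting error only). Ifi47 rose by 2.89 ± 0.17 (adjusted p = 3.04e-05), 7.47-fold (6.96 to 8.03), and Irgm2 by 3.07 ± 0.17 (adjusted p = 2.5e-05), 8.47-fold (8.10 to 8.87). These 3 are the members with the most reads in non-irradiated cells. Igtp rose by 3.70 ± 0.20 (adjusted p = 2.64e-05), 13.2-fold (12.2 to 14.2). Tgtp2 rose by 3.72 ± 0.24 (adjusted p = 5.79e-05), 13.3-fold (12.01 to 14.74), and Tgtp1 by 4.76 ± 0.21 (adjusted p = 1.21e-05), 27.4-fold (23.0 to 32.9). The rise of Iigp1 was the largest among members, 5.22 ± 0.32 (adjusted p = 9.58e-05), 37.5-fold (33.4 to 42.2), with both irradiated libraries of KO above both of WT, as for the other 6. Each of the 7 kept its call in each alternative run, among them leaving out any of the 4 irradiated libraries.

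The irradiation effect was measured in each line against its own non-irradiated cells. Iigp1, Tgtp1 and Tgtp2 entered the test only through their irradiated libraries, since their non-irradiated counts fell under the filter, and a change of these 3 is no independent support. All 7 members were called with no filter as well. In KO all 7 members rose, where 21.1% of all tested genes rose and 18.6% fell, with a median log2 change of 6.69 against 0.018 over all genes. Irgm1 and Ifi47 rose least, by 4.25 ± 0.09 (adjusted p = 4.07e-07) and 4.61 ± 0.19 (adjusted p = 2.67e-06). Igtp rose by 6.61 ± 0.25 (adjusted p = 2.12e-06), 98.8-fold (81.2 to 121.4), and Irgm2 by 6.69 ± 0.21 (adjusted p = 1.01e-06), 106.7-fold (91.5 to 125.1). The other 3 effectors, near the limit of detection in non-IR KO, rose more. Iigp1 rose by 8.67 ± 0.42 (adjusted p = 1.91e-05), 426.6-fold (291.0 to 653.3). Tgtp1 rose by 8.72 ± 0.31 (adjusted p = 1.73e-06) and Tgtp2 by 9.50 ± 0.40 (adjusted p = 3.25e-06), with pooled intervals of 224.7 to 1027-fold and 372.1 to 1909-fold that show how few reads the low group gave.

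In WT all 7 members rose too, where 20.4% of all tested genes rose and 18.4% fell, with a median log2 change of 4.09 against 0.028 over all genes, and of 4.09 also with Iigp1 set at its lower bound. Ifi47 rose by 1.76 ± 0.18 (adjusted p = 0.00032), 3.47-fold (3.02 to 4.01), and Irgm1 by 2.40 ± 0.09 (adjusted p = 6.8e-06), 5.45-fold (4.997 to 5.956). As in KO, these 2 had the smallest changes of the 7. Tgtp1 rose by 3.99 ± 0.40 (adjusted p = 0.000275), Igtp by 4.09 ± 0.29 (adjusted p = 6.13e-05), Irgm2 by 4.71 ± 0.22 (adjusted p = 1.24e-05) and Tgtp2 by 5.33 ± 0.44 (adjusted p = 0.000117). Iigp1, with 178 and 117 reads in irradiated WT and 0 in both non-IR WT libraries, was at least 102.5-fold higher (adjusted p = 0.000655).

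**Figure D3:**
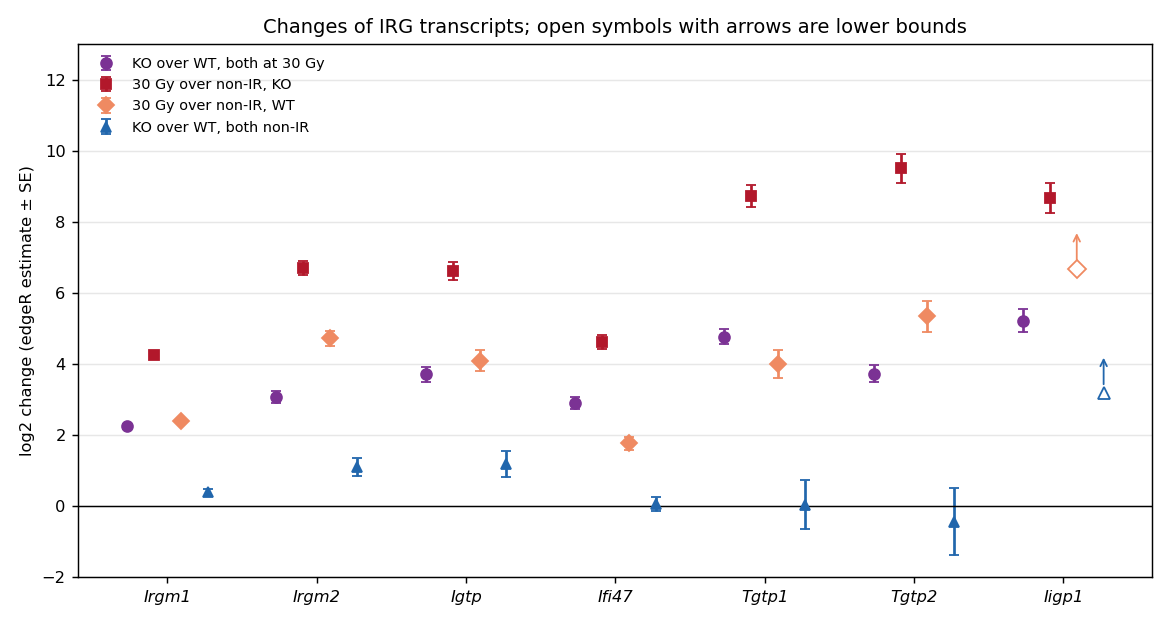
Log2 changes of each member with SE in 4 comparisons: KO over WT after 30 Gy (purple), 30 Gy over non-IR in KO (red) and in WT (orange), and KO over WT without irradiation (blue). Open symbols with arrows are the lower bounds of Iigp1 against non-IR WT, where it had 0 reads. The purple points run from 2.23 for Irgm1 to 5.22 for Iigp1, and the blue points of Ifi47, Tgtp1 and Tgtp2 lie within 1 SE of 0.

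Without irradiation fewer members passed the test. Of the 7, 2 were called as higher in KO, where 10.4% of all tested genes were called higher and 9.49% lower: Irgm1 by 0.38 ± 0.09 (adjusted p = 0.0226), 1.31-fold (1.17 to 1.46), and Irgm2 by 1.09 ± 0.26 (adjusted p = 0.0232), 2.14-fold (1.63 to 2.84). Igtp had a log2 change of 1.18 ± 0.37 (adjusted p = 0.0599). Iigp1 had 16 and 10 reads in non-IR KO and none in non-IR WT, at least 9.01-fold more by reads, and did not pass either (adjusted p = 0.0655). The count of 2 moved both ways with the method: it was 4, with Igtp and Iigp1 added, with no filter, with DESeq2 and with the replicate number as a block, 0 with limma voom and with the 2 non-irradiated groups fitted alone, and at most 1 when a non-irradiated library was left out. With the block the adjusted p was 0.00183 for Igtp and 2.23e-05 for Iigp1. Ifi47 had a change of 0.04 (adjusted p = 0.926), and its pooled ratio of 1.04 had an interval of 0.875 to 1.25. For Tgtp1 and Tgtp2 the ratio could not be placed, since the intervals ran from 0.34 to 3.18 and from 0.235 to 2.12. The median over the 7 was 0.38, and 0.38 also with Iigp1 at its bound, against -0.01 over all genes.

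Whether the irradiation effect itself differed between the lines was tested as the difference of the 2 log2 changes, KO minus WT. It was called higher for 5 of the 7 members, where 1.37% of all tested genes were called higher and 0.57% lower. The median difference, with Iigp1 included, was 2.52 against -0.007 over all genes. Tgtp1, Tgtp2 and Iigp1 entered this test only through their irradiated libraries, so a call of these 3 is no independent support. The difference was 1.86 ± 0.12 for Irgm1 (adjusted p = 0.000932), 1.98 ± 0.31 for Irgm2 (adjusted p = 0.022), 2.52 ± 0.45 for Igtp (adjusted p = 0.0371), 2.85 ± 0.26 for Ifi47 (adjusted p = 0.00223) and 4.73 ± 0.85 for Tgtp1 (adjusted p = 0.0382). Tgtp2 had a difference of 4.17 ± 1.05 and did not pass (adjusted p = 0.125), although it did with no filter, with DESeq2 and with the replicate number as a block (adjusted p = 0.000333 with the block), and for Iigp1, with no read in non-IR WT, the fitted difference has no meaning as a size. The calls of Irgm1 and Ifi47 were kept in each alternative run. Those of Irgm2, Igtp and Tgtp1 were not: 6 of the 8 fits without 1 library left 2 or 3 members called, and the other 2, without either library of irradiated WT, left 6 and 5.

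The make-up of the family changed with its level. Levels of different genes were compared as TPM, which is CPM divided by the length of the gene's annotated exons and rescaled to the same total in each library. Irgm1 gave 13.1% of the members' summed TPM in irradiated KO, 26.7% in irradiated WT, 39.2% in non-IR KO and 40.5% in non-IR WT, and Ifi47 gave 13.2%, 16.8%, 30.7% and 40.2% in the same groups. Irgm2 gave 24.2% in irradiated KO, 27.3% in irradiated WT, 13.4% in non-IR KO and 8.39% in non-IR WT, and Igtp 24.9%, 18.2%, 13.7% and 8.62%. The share of Iigp1 was 9.71% in irradiated KO, 2.45% in irradiated WT, 1.57% in non-IR KO and 0 in non-IR WT. Non-irradiated cells of both lines thus held mostly Irgm1 and Ifi47, and irradiated KO cells held a mixture in which the largest average share, that of Igtp, was 24.9%. In irradiated KO the highest per length were Igtp at 587.5 and Irgm2 at 570.4 TPM, whose ranges overlapped. They were followed by Ifi47 at 310.4 and Irgm1 at 307.4 TPM, which overlapped too, then by Iigp1 at 228.5 and Tgtp2 at 219.2 TPM, also overlapping, and by Tgtp1 at 131.7 TPM. In non-IR WT the order began with Irgm1 at 11.7 and Ifi47 at 11.6 TPM, overlapping, and Igtp at 2.49 and Irgm2 at 2.45 TPM, overlapping.

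**Figure D4:**
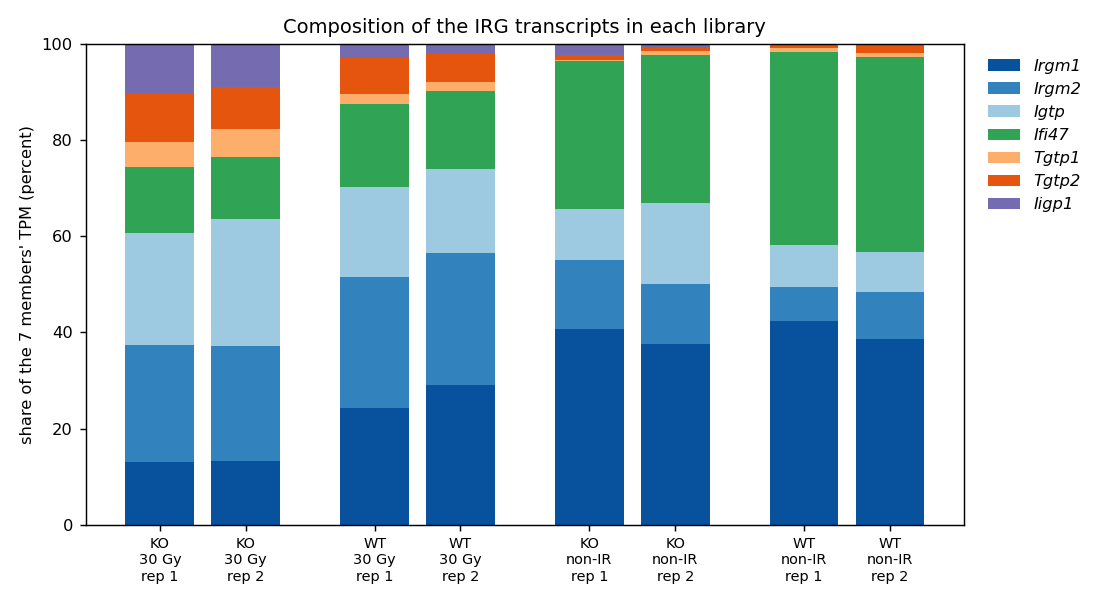
Share of each member in the summed TPM of the 7 members, in percent, 1 bar per library, grouped as irradiated KO, irradiated WT, non-IR KO and non-IR WT. The shares of Irgm1 (dark blue) and Ifi47 (green) are smallest in irradiated KO, at 13.1% and 13.2%, and those of Iigp1 (purple) largest, at 9.71%.

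The members lie in 3 places of the GRCm38 genome (GENCODE M21 annotation), and each is annotated as protein-coding. Irgm1 (chr11:48861968-48871683, minus), Tgtp1 (chr11:48985327-48994172, minus), Tgtp2 (chr11:49057194-49064206, minus) and Ifi47 (chr11:49076587-49096974, plus) form one cluster. Igtp (chr11:58199556-58207591, plus) and Irgm2 (chr11:58199618-58222782, plus) form another farther along the same chromosome, and Iigp1 (chr18:60376027-60392634, plus) lies on chromosome 18. Reads of the close copies are uncertain: of the 100-base windows of their annotated transcripts, 73.1% of Tgtp1 and 76.8% of Tgtp2 also occur in another gene, mostly in each other, against 5.16% for Igtp, 3.01% for Irgm2, 0.842% for Ifi47 and 0 for Irgm1 and Iigp1. The sources used here do not say how reads with several matches were counted. With the reads of Tgtp1 and Tgtp2 summed, the pair rose by 4.05 ± 0.22 in irradiated KO over irradiated WT (adjusted p = 2.67e-05), by 9.16 ± 0.34 with irradiation in KO (adjusted p = 2.01e-06) and by 4.90 ± 0.37 with irradiation in WT (adjusted p = 8.08e-05). The summed pair also passed the test of the difference between the irradiation effects, at 4.26 ± 0.79 (adjusted p = 0.0427). Igtp and Irgm2 share 162 exon bases on the same strand, Tgtp1 shares 223 with Gm12185, and Ifi47 shares 111 with Olfr56, so some of their reads could belong to either gene.

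The table held 10 other IRG genes, of which 9 were tested. After irradiation 8 of the 9 were higher in KO than in WT, where 13.3% of all tested genes were, with a median log2 change of 4.40 against -0.013 over all tested genes. Gm12250, annotated as a processed pseudogene but known as Irgb10, an effector that acts on bacterial membranes, had 2047 and 2221 reads in irradiated KO and 124 and 45 in irradiated WT, against 1 and 2 in non-IR KO and 1 and 1 in non-IR WT. Its change between the irradiated lines was 4.55 ± 0.41 (adjusted p = 0.000265), 24.0-fold (20.6 to 28.1). F830016B08Rik (5.75 ± 0.71), Gm4841 (4.78 ± 0.59) and Gm4951 (4.58 ± 0.43), all near Iigp1, and Gm5431 (4.40 ± 0.51), near Irgm1, showed changes of the same order. Gm12185 (2.0 ± 0.15), 9930111J21Rik2 (1.84 ± 0.10) and 9930111J21Rik1 (1.81 ± 0.22) rose less, and Irgq, a distant relative on chromosome 7 that is not known as interferon-inducible, had a change of 0.36 ± 0.13 that did not pass (adjusted p = 0.0733). Irgc1, the testis member of the family, had 18 reads in irradiated KO, 12 in irradiated WT, 10 in non-IR KO and 4 in non-IR WT and was not tested. Irradiation raised 8 of the 9 in KO, all but Irgq, and 5 of the 9 in WT, where 21.1% and 20.4% of all tested genes rose. Gm12250, Gm4951, Gm5431, Gm4841 and F830016B08Rik entered the test only through irradiated libraries, so their calls with irradiation are no independent support. Gm4841 and F830016B08Rik needed the irradiated KO libraries to enter. Their calls between the irradiated lines, and their part in the median of 4.40, are therefore no independent support either. The difference between the irradiation effects was called for Gm12185 (2.36 ± 0.24, adjusted p = 0.00291) and 9930111J21Rik2 (0.92 ± 0.14, adjusted p = 0.0161). That is 2 of the 9, where 1.37% of all tested genes were called higher and 0.57% lower. Without irradiation 9930111J21Rik2 (0.93 ± 0.10, adjusted p = 0.000814) and Irgq (0.55 ± 0.13, adjusted p = 0.0207) were higher in KO, 2 of the 9 where 10.4% of all tested genes were. Gm12185 carries the joined promoter pattern shown above and 9930111J21Rik2 carries neither motif in its window. That window ends in gaaatag, where the like sequence of 9930111J21Rik1 runs on to the ISRE core match GAAATAGAAA, so the absence may come from the window's edge.

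Most genes around the members did not pass the test between the irradiated lines. Within 250 kb of a member's start lay 39 genes outside the IRG lists used here, 24 of them tested. They may still include relatives of the IRG genes, since Gm5970 shares 50-base windows of its transcript with Iigp1. Between the irradiated lines 6 of the 24 were higher in KO and 1 lower, with a median log2 change of 0.11 against -0.013 over all tested genes. The 6 of 24 is a larger share than the 13.3% of all tested genes called higher, and the 1 of 24 a smaller share than the 11.4% called lower. Their changes ran from -2.07 to 4.72, the largest being that of BC023105, near Iigp1. Olfr56 and Psme2b were called for the difference between the irradiation effects, at 3.40 (adjusted p = 0.044) and 1.22 (adjusted p = 0.0306). These 2 of 24 are a larger share than the 1.37% of all tested genes called higher, and 0.57% of all tested genes were called lower. Olfr56 is an olfactory receptor gene whose annotated span covers Tgtp1, Tgtp2 and Ifi47, and Psme2b is a copy of a proteasome activator gene that shares exon bases with 9930111J21Rik1.

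**Figure D5:**
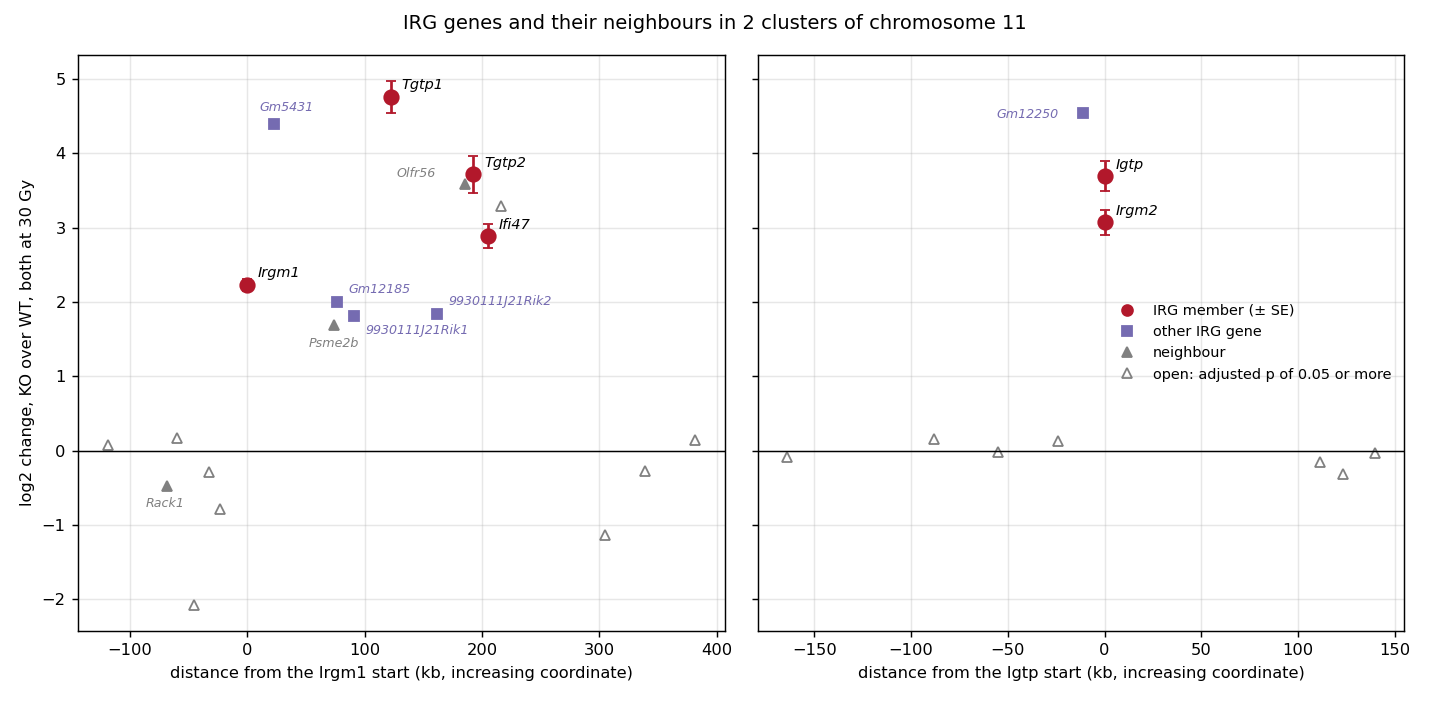
Log2 change of KO over WT after 30 Gy for the members (red, ± SE, at their starts) and for the other tested genes (at their midpoints) around the 2 clusters of chromosome 11, by distance in kb from the start of Irgm1 (left) or Igtp (right). Purple squares are other IRG genes, grey triangles are neighbours outside the IRG lists used here, and open symbols did not pass the test. The IRG genes lie between 1.81 and 4.76, while most neighbours lie near 0.

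The GBPs, large interferon-inducible GTPases that act on the same vacuoles, had 10 tested genes of 11 in the table. Between the irradiated lines 9 of the 10 were higher in KO, where 13.3% of all tested genes were, with a median log2 change of 2.99, beside 3.70 for the IRG members. Gbp7 averaged 388.2 ± 18.8 CPM in irradiated KO and 37.55 ± 9.81 in irradiated WT (SD, n = 2 each), a change of 3.39 ± 0.17 (adjusted p = 1.72e-05). Gbp3 changed by 3.01 ± 0.19, Gbp2 by 2.80 ± 0.20 and Gbp5 by 2.91 ± 0.21 between the irradiated lines, with the largest adjusted p of these 3 at 9.3e-05. All 10 rose with irradiation in KO and in WT, where 21.1% and 20.4% of all tested genes rose. Gbp4, Gbp5, Gbp6, Gbp8, Gbp9, Gbp10 and Gbp11 entered the test only through irradiated libraries, so their calls with irradiation are no independent support. Gbp10 and Gbp11 entered through irradiated KO alone, so their calls between the irradiated lines are none either. Without irradiation Gbp3 (2.19 ± 0.50, adjusted p = 0.0207) and Gbp7 (1.45 ± 0.32, adjusted p = 0.0187) were higher in KO, 2 of the 10 where 10.4% of all tested genes were. For the difference between the irradiation effects 0 of the 10 were called, where 1.37% of all tested genes were called higher and 0.57% lower. Gbp7 came nearest at 1.94 ± 0.39 (adjusted p = 0.0598), and genes such as Gbp10, with 0 reads in both non-irradiated groups, could not be placed.

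The interferon list held the ligands Ifnb1 and Ifng, the interferon receptors, kinases, STATs, IRFs and their feedback genes, and 17 of its 19 genes were tested. Between the irradiated lines 10 were higher and 4 lower in KO, where 13.3% of all tested genes were higher and 11.4% lower. Their median log2 change was 0.47 against -0.013 over all tested genes. The higher ones included transcription factors that bind the ISRE. Stat2, a subunit of a complex that binds the ISRE, rose by 2.19 ± 0.08 (adjusted p = 7.56e-06), Irf7, an amplifier of type I interferon, by 3.59 ± 0.20 (adjusted p = 2.81e-05), and Irf1, an interferon-inducible factor that itself drives GBP and IRG genes, by 0.66 ± 0.10 (adjusted p = 0.00232). Jak1, the kinase shared by both interferon receptors, had a change of 0.04 ± 0.08 that did not pass (adjusted p = 0.78). The 4 lower ones were the receptor chains Ifngr1 (-0.49 ± 0.09), Ifngr2 (-1.22 ± 0.08) and Ifnar1 (-0.54 ± 0.07) and the kinase Tyk2 (-0.55 ± 0.07). In non-irradiated cells Stat2 was higher in KO, at 0.67 ± 0.08 (adjusted p = 0.0019), as was Irf7, at 2.27 ± 0.31 (adjusted p = 0.0026). Irf1 was lower there, at -0.50 ± 0.10 (adjusted p = 0.0131). Of the 17, 5 were higher there and 6 lower, where 10.4% and 9.49% of all tested genes were. Irradiation raised 11 and lowered 1 in KO, where 21.1% of all tested genes rose and 18.6% fell, and raised 9 and lowered 1 in WT, where 20.4% rose and 18.4% fell. The difference between the irradiation effects was called for Stat2 (1.53), Irf1 (1.15) and the feedback inhibitor Socs1 (2.61). That is 3 of the 17, where 1.37% of all tested genes were called higher and 0.57% lower. The interferons themselves, which are named here after their values were seen, were few in reads. Ifnb1 is already counted above, among the 10 higher between the irradiated lines and the 11 raised by irradiation in KO. It entered the test only through the irradiated KO libraries, so these calls are no independent support. Ifnb1 had 129 and 118 reads in irradiated KO and 4 and 4 in irradiated WT, against 1 and 0 in non-IR KO and 1 and 0 in non-IR WT, and its change between the irradiated lines was 4.85 ± 0.57 (adjusted p = 0.000856). Ifng had 1 read in all 8 libraries together, in irradiated WT.

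Genes of the autophagy list mostly did not pass the test between the irradiated lines. The list held conjugation genes, which help place IRG effectors and GBPs on the vacuole, and also Ulk1, Becn1, Sqstm1, Trim21 and Traf6. Of 16 tested, 3 were higher in KO (Atg12, Map1lc3a and Trim21), a share to be read against the 13.3% of all genes. Sqstm1 had a change of -0.0013 ± 0.071, Gabarap of -0.24 ± 0.10, Map1lc3b of 0.03 ± 0.13 and Gabarapl2 of 0.08 ± 0.24, and none of these 4 passed, the smallest adjusted p being 0.122. Irradiation raised 7 of the 16 in KO and 8 in WT, larger shares than the 21.1% and 20.4% of all tested genes that rose, among them Map1lc3b by 1.23 ± 0.14 in KO and 1.53 ± 0.14 in WT, and Sqstm1 by 0.75 ± 0.07 in KO and 0.99 ± 0.07 in WT. Trim21, a ubiquitin ligase induced by interferon, was the 1 gene of the list with a call for the difference between the irradiation effects, at 2.36 ± 0.35 (adjusted p = 0.0162). That is 1 of the 16, where 1.37% of all tested genes were called higher and 0.57% lower.

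The 7 members followed one another across the libraries. Pairwise Pearson r of log2 CPM over the 8 libraries, which share 4 groups and so are not 8 independent points, ran from 0.948 for Iigp1 with Tgtp1 to 0.997. Among 11047 other genes with at least 5 CPM in their highest group, the 6 with the highest r to the mean of the members' z-scores were Ifi209 (0.9983), B4galt5 (0.9979), Trafd1 (0.9974), Trim25 (0.9973), Ifi203 (0.997) and Ifi213 (0.9967). Ifi209, Ifi203 and Ifi213 belong to the interferon-inducible PYHIN family of DNA-binding proteins, Trim25 encodes the ubiquitin ligase of the RNA sensor RIG-I, Trafd1 a feedback regulator of innate signalling and B4galt5 a galactosyltransferase of glycolipid synthesis. A like pattern did not mean a like size. Between the irradiated lines Ifi209 had a log2 change of 3.02 and B4galt5 of 1.05, with 203.8 CPM in irradiated KO and 25.4 in irradiated WT for Ifi209, and 138.6 and 67.7 for B4galt5. Gm12250 stood at rank 9, Stat2 at 10 and Gbp7 at 13 in the same ordering.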

How the data were processed

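The authors deposited 1 table of raw counts, unnormalized whole numbers of reads for each Ensembl gene in all 8 libraries. Per the submitters' processing notes the genome build was mm10 and the tools were DESeq2, HTSeq, HISAT and HISAT2. Versions, annotation, strand setting and the counting of multiply matching reads are not given in those sources. Genes were placed and their exons measured with GENCODE M21 (28915 of 29079 placed).

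The counts were then fitted with edgeR 4.0.16 (R 4.3.3): filterByExpr (minimum count 10, minimum total 15; 14923 genes), TMM factors of 0.975 to 1.02, and 1 quasi-likelihood fit of all 8 libraries with 4 coefficients and 4 residual degrees of freedom (common dispersion 0.0199). P-values are two-sided and Benjamini-Hochberg adjusted over all tested genes, called under 0.05, with the SE taken from the F statistic. The fit was tested on simulated data. Of the members, 4 met the filter without irradiated libraries, while Iigp1, Tgtp1 and Tgtp2 (3) met it through these alone, so that they were bound to differ. Pooled folds have exact (Clopper-Pearson) 95% intervals, and 0 reads were taken to allow 3 over the group. Both cover counting error only. Alternatives were RLE scaling, total counts, no filter, at least 50 reads in 2 libraries, DESeq2 1.42.0, limma voom 3.58.1, a replicate block, summed Tgtp reads, each library left out, and only the groups compared.

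Named genes were the members, Piezo2, every other IRG gene, the 4 tested genes of each list with the highest mean CPM, the 6 genes most like the members in pattern, and neighbours with a called difference of irradiation effects. The members and lists were chosen with earlier results of these data known, and what they share with those results is not independent support. In the interferon regulator list, 1 gene is not reported here. Other called genes are named where a count was 5 or fewer.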

Additional observations from a re-analysis of the deposited data

Results flagged for a closer look

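The irradiation effect, as a log2 change, differed between KO and WT by the edgeR test of the difference itself for 15 genes of the families, lists and neighbourhoods described above. It was larger in KO for 13 of them and smaller in KO for 2. Over all 14923 tested genes the difference was called higher for 205 (1.37%) and lower for 85 (0.57%). The members and lists were chosen with earlier results of these data known, so the split is no independent support. Among the members the difference, KO minus WT, was 1.86 for Irgm1, 1.98 for Irgm2, 2.52 for Igtp, 2.85 for Ifi47 and 4.73 for Tgtp1. Of these, Tgtp1 met the filter only through its irradiated libraries. The difference was 2.36 for Gm12185 and 0.92 for 9930111J21Rik2 among the other IRG genes. It was 1.53 for Stat2, 1.15 for Irf1 and 2.61 for Socs1 among the interferon regulators, and 2.36 for Trim21 among the autophagy genes. Among the neighbours it was 3.4 for Olfr56 and 1.22 for Psme2b. The 2 smaller ones were fibroblast markers, Dcn at -1.71 and Pdgfra at -1.14. The 4 groups have 2 libraries each, too few to look for a single library apart from its group in any gene.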

How the results depend on the processing

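All 7 members kept their direction and their call in each alternative for the comparison of the irradiated lines and for irradiation in either line (6 of 6 with the Tgtp reads summed). Without irradiation 2 members were called, against 4 with no filter, with DESeq2 and with the replicate block, 0 with limma voom and with only the 2 groups compared (4 tested), and 0 to 1 when a library was left out. Signs turned there without a call: Tgtp1 was at -0.18 with limma voom, -0.22 when summed with Tgtp2, -0.02 without non-IR WT replicate 1 and -1.39 without non-IR KO replicate 2. Ifi47 was at -0.03 without non-IR WT replicate 1 and -0.02 without non-IR KO replicate 2, and Tgtp2 at 0.32 without non-IR WT replicate 2. Over the fits without 1 library Ifi47 ran from -0.03 to 0.13, Tgtp1 from -1.39 to 0.49 and Tgtp2 from -0.99 to 0.32. For the difference of irradiation effects the 5 calls became 3 with limma voom, 6 with no filter, DESeq2 or the block, and 2 to 6 with a library left out, and the fitted value of Iigp1 was 0.65 with limma voom. The cause was not tested.

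Over all genes the difference was called higher for 359 and lower for 219 with no filter, and only the 2 groups compared gave 831 lower calls between the non-irradiated lines. Leaving out 1 library gave 2072 to 2347 higher and 1832 to 2065 lower calls for irradiation in KO, 2034 to 2149 and 1812 to 2085 for irradiation in WT, 788 to 954 and 676 to 781 between the non-irradiated lines, 1100 to 1219 and 792 to 960 between the irradiated lines, and 99 to 124 and 18 to 31 for the difference. A fit with fewer libraries has fewer residual degrees of freedom.

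Replicate numbers come from the labels, which do not say what a number shares. Deviations of same-numbered libraries correlated at 0.564 to 0.611 over the 6 pairs of groups. The replicate block gave 4417 lower calls for irradiation in KO and 4465 in WT, 3197 higher and 3504 lower between the non-irradiated lines, 3761 and 3755 between the irradiated lines, and 1216 and 1276 for the difference. With the block Igtp (adjusted p = 0.00183) and Iigp1 (2.23e-05) passed between the non-irradiated lines and Tgtp2 (0.000333) passed for the difference. Depth limits Tgtp1, Tgtp2 and Iigp1 in non-irradiated cells, where they had at most 16 reads per library.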
